A study of Mus musculus with 12 samples.

Results

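Neuropsin, the product of Klk8, is a secreted serine protease of the kallikrein family that neurons make as an inactive precursor and release around synapses. It is best known from the pyramidal neurons of the hippocampus and from the amygdala, where it cuts proteins at the cell surface in response to neuronal activity. Its described substrates include the adhesion molecule L1cam, the ephrin receptor Ephb2 and neuregulin 1 (Nrg1), whose cleaved form binds the receptor Erbb4 on inhibitory interneurons. Described here are Klk8, these 4 genes, the related kallikrein Klk6, the tissue plasminogen activator gene Plat and the gene of its brain inhibitor, Serpini1. These 8 genes, of 29608 gene names on the array, were read by the 10 non-control probes that the array files assign to them, of 39429 such probes. Klk8 was chosen by its measured signal, as the gene with the lowest log2 fold change of all those tested in MRL/lpr against MRL/+, and the other 7 by their known links to it, so the values of Klk8 are given as a description without a test.

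RNA was taken from the cortex of 12 adult female mice. Of these, 4 were MRL/lpr mice, a lupus-prone strain that carries the lpr mutation of Fas, and 4 were MRL/+ (MRL/MpJ) controls of the same background without it. The other 4, called Fn14ko here and labelled Fn14koMRL, lack Fn14, the receptor of the cytokine TWEAK encoded by Tnfrsf12a, and carry lpr too, as bred by backcrossing to MRL/lpr. The knockout is not restricted to a cell type by any label, the MRL/+ mice came from another breeder, and each RNA came from a single mouse. Each 2-colour array carried 2 mice of 1 group, with odd replicate numbers labelled with Cy3 and even ones with Cy5. Every group had a slide to itself, and an effect of the slide cannot be told apart from one of the group in any comparison below.

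Signals are given in units of the median spot retained in that sample. After faint and marked spots were left out, 17302 genes remained, and the 6 arrays set the precision, with a median standard error of 0.25 for a log2 fold change. The 2 MRL/+ mice labelled with Cy5 differed from the rest, with only 35.0% and 21.2% of spots well above background where the other 10 mice had 56.6% to 70.0%. Empty corner spots read 6.88 and 6.66 times the local background in these 2 mice, against 1.26 to 2.74 times in the others. The members are therefore also given without these mice, as are the named pathway and marker genes whose call this ended. Mean signals of Tnfrsf12a, read by 1 probe, were 0.694 ± 0.0786 (SD, n = 4) in Fn14ko, 1.68 ± 0.246 in MRL/lpr and 1.11 ± 0.152 in MRL/+. It was lower in Fn14ko than in MRL/lpr (limma adjusted p = 0.00287), yet well above background in 4 of 4 Fn14ko mice. Whether the probe lies in the deleted part is not given in the sources used here, so it does not check the knockout label. The mean of Fas was 0.484 in MRL/+, while MRL/lpr had 0.202 and Fn14ko 0.239, and the MRL/lpr difference from MRL/+ did not pass the test (limma adjusted p = 0.100). Its probe was well above background in just 2 of 4 MRL/+ mice, those labelled with Cy3, at 0.458 and 0.186. The lower of these lay within the MRL/lpr range of 0.164 to 0.284.

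The probes are 60 bases long. The 4 shown here are those of Klk8 itself, of its relative Klk6, and of the substrates Nrg1 and L1cam, whose group differences are described below. They are written as the array files list them, with their mm9 position and strand given after the block.

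Klk8: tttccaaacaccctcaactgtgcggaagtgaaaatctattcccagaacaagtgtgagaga
Klk6: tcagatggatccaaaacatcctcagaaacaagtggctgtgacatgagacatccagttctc
Nrg1: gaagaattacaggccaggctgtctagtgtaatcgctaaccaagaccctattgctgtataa
L1cam: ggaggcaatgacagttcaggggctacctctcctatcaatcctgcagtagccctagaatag

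The Klk8 probe lies at chr7:51057455-51057514 on the plus strand, and the Klk6 probe on the same strand at chr7:51086977-51087036, within the same kallikrein cluster. The Nrg1 probe is at chr8:32928500-32928559 and the L1cam probe at chrX:71100374-71100433, both on the minus strand. The remaining members were read at chr1:68078805-68078864 (Erbb4, minus), chr4:136211203-136211262 (Ephb2, minus) and chr8:23892531-23892590 (Plat, plus). Serpini1 had 2 probes on the plus strand, at chr3:75420571-75420630 and chr3:75446123-75446182. The GC content of the Klk8 and Nrg1 probes was 43.3%, the median of all retained probes. The other retained probes of the members lay between 35% (Erbb4) and 55% (Ephb2). A second Erbb4 probe, at chr1:68086686-68086745, was well above background in only 1 of the 12 mice and was left out as faint, which left 9 probes. Positions are those of the array design, and exon annotation of this build was not used here.

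Klk8 was 8.57-fold lower in MRL/lpr than in MRL/+ and 6.14-fold lower than in Fn14ko. In the 4 MRL/lpr mice, in the order of replicates 1 to 4, its signals were 0.446, 0.566, 0.366 and 0.425. In the 4 Fn14ko mice they were 2.55, 3.20, 2.03 and 3.38, and in the 4 MRL/+ mice 3.78, 3.26, 4.97 and 3.46. All MRL/lpr mice lay below all 8 others, while Fn14ko and MRL/+ overlapped. The probe was well above background in all 12 mice, also where it was lowest. The means were 3.87 ± 0.766 in MRL/+, 2.79 ± 0.621 in Fn14ko and 0.451 ± 0.0840 in MRL/lpr (SD, n = 4), and the coefficient of variation was similar in the 3 groups, between 18.6% and 22.3%.

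**Figure D1:**
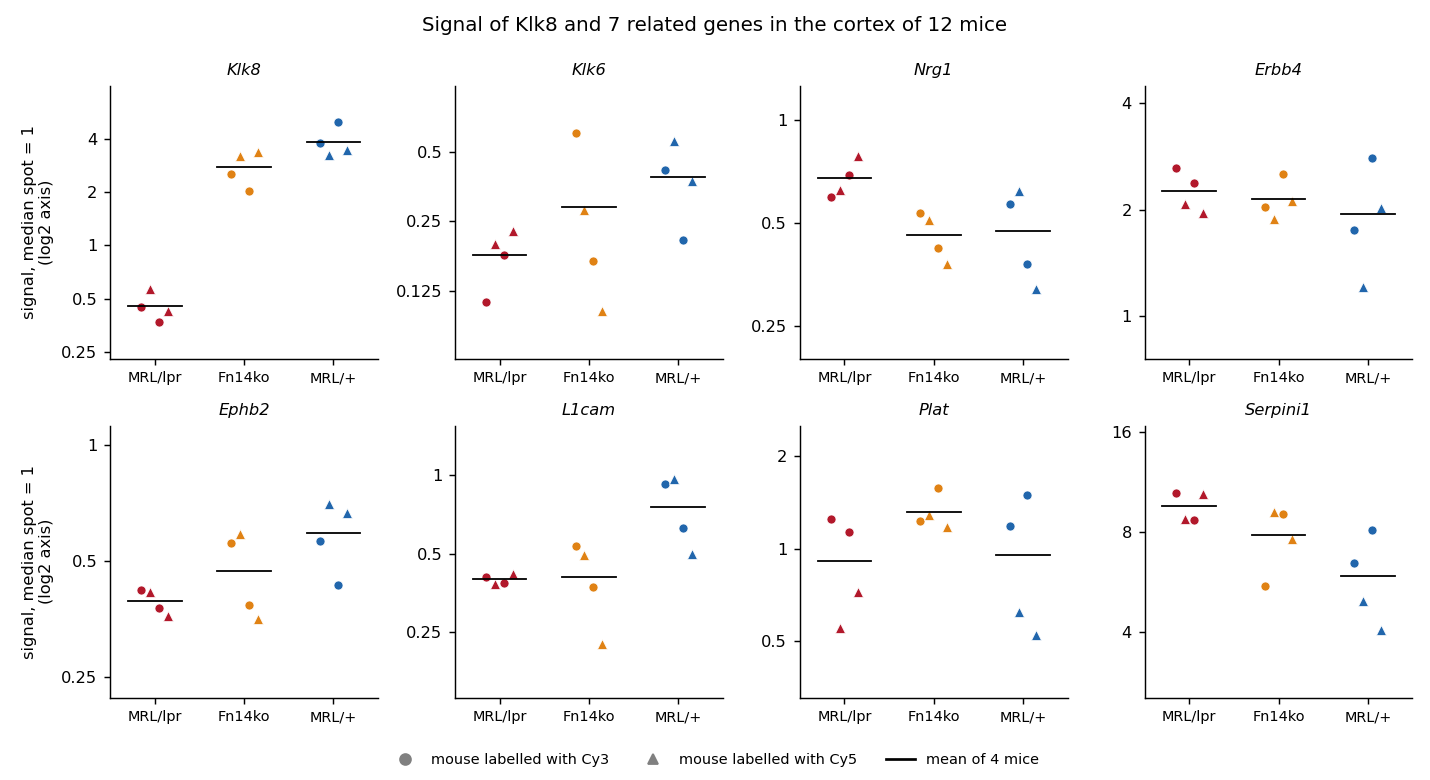
Signal of each of the 8 genes in every mouse, on a log2 axis in units of the median spot, with circles for mice labelled with Cy3, triangles for Cy5 and a line at the mean of 4 mice. The 4 MRL/lpr mice sit between 0.366 and 0.566 for Klk8, below all Fn14ko and MRL/+ mice, while the other genes differ by far less between groups.

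For Klk8 the log2 fold change was -3.10 (SE 0.25, 95% interval -3.63 to -2.56) in MRL/lpr against MRL/+, the first of 17302 genes from the lowest. The next genes were Lrrc10b at -2.98 (SE 0.48) and Pfn1 at -2.98. Against Fn14ko, which shares the MRL/lpr mice with the first comparison, it was -2.62 (SE 0.25, 95% interval -3.15 to -2.08) and ranked 12 of 17302. In Fn14ko against MRL/+, which shares the MRL/+ mice, it was -0.48 (SE 0.25, 95% interval -1.01 to 0.05), at rank 4779. In the Cy3 mice alone, 2 a group, the mean signals were 0.406, 2.29 and 4.38, in the order MRL/lpr, Fn14ko and MRL/+. Without both MRL/+ Cy5 mice, the fold changes against MRL/+ were -3.49 for MRL/lpr and -0.87 for Fn14ko. The smaller difference, Fn14ko against MRL/+, ran from -0.93 in the Cy3 mice to -0.29 without MRL/+ replicate 3 over the other settings that left faint spots out. Settings that left out an MRL/lpr mouse or changed only the dye or block terms cannot change this estimate, so a count of settings does not measure its support. With faint spots kept the difference was 0.25, but that setting moved the genes of both fits together, by a median of 0.73 in this comparison. Of the 17302 genes, 86.4% lay within 0.01 of that shift.

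Most of the measured markers of the hippocampus, which lies beneath the cortex and where neuropsin is abundant, were low in MRL/lpr, as Klk8 was. Of 7 such markers on the array, 4 were measured above the limit for faint spots. Of these, 3 of the 4 were lower in MRL/lpr than in MRL/+ and also lower than in Fn14ko (limma, Benjamini-Hochberg threshold 0.05), with none higher. The shares of all genes called lower were 8.37% and 1.99%. None of the 4 differed past the threshold between Fn14ko and MRL/+. There 3 of the 4 ran higher in Fn14ko, with a median log2 fold change of 0.30, while Klk8 ran lower. Spink8, a protease inhibitor gene of hippocampal pyramidal cells, had signals of 0.168, 0.287, 0.372 and 0.520 in MRL/lpr, against 1.92, 3.23, 1.51 and 2.90 in Fn14ko and 2.97, 2.11, 3.03 and 1.18 in MRL/+. As for Klk8, every MRL/lpr mouse lay below every mouse of the other groups. Spink8 had a log2 fold change of -2.81 (SE 0.47, limma adjusted p = 0.00273) against MRL/+ and -2.88 (SE 0.47, limma adjusted p = 0.00404) against Fn14ko.

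The other markers that fell were Lct and Zbtb20. Mean signals of Lct were 0.523, 3.12 and 2.45 in MRL/lpr, Fn14ko and MRL/+, and those of Zbtb20 were 0.906, 3.66 and 2.47. The exception was Wfs1, with means of 16.6, 15.7 and 19.0, which is also made in cortical layers and gave most of the summed level. That summed level of the 4 genes ran from 16.1 to 22.7 in MRL/lpr, 20.5 to 28.7 in Fn14ko and 20.2 to 32.6 in MRL/+. The median log2 fold change of the 4 was -1.71 against MRL/+ and -2.30 against Fn14ko, beside -0.10 and -0.07 over all genes tested. The count of 3 lower markers against MRL/+ was the same when any single mouse was left out, when both MRL/+ Cy5 mice were left out, and in the Cy3 mice alone. It was 0 of 7 with faint spots kept, 1 of 2 with only spots well above background in all mice, and 0 of 4 by the methods' t-test after Benjamini-Hochberg adjustment. Against Fn14ko, the count of 3 fell to 2 without Fn14ko replicate 2. The part of these markers in the Klk8 difference was not tested, and in bulk tissue fewer cells of a type and less RNA per cell cannot be told apart.

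**Figure D2:**
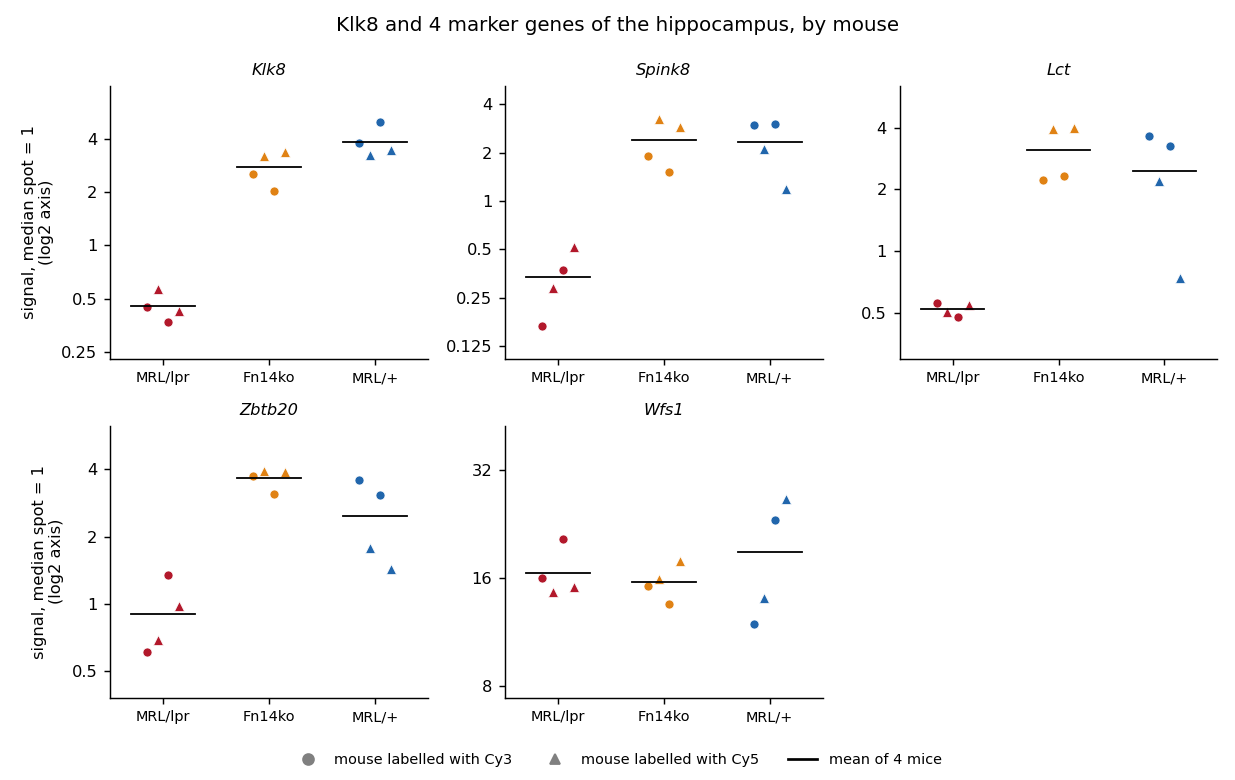
Signal of Klk8 and of the 4 measured hippocampal markers in every mouse, on a log2 axis in units of the median spot, with symbols by dye and a line at the mean of 4 mice. Klk8, Spink8, Lct and Zbtb20 are lowest in the 4 MRL/lpr mice, whereas Wfs1 is at 14.7 to 20.5 there and overlaps both other groups.

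Cortical markers were present in every group: all 8 genes of cortical excitatory neurons were measured, with a summed level of 29.1 to 32.2 in MRL/lpr, 28.5 to 36.7 in Fn14ko and 32.4 to 48.8 in MRL/+. Of these 8, MRL/lpr against MRL/+ had 3 higher and 2 lower, with Neurod6, a neuronal transcription factor shared by cortex and hippocampus, lower by the most at -1.70 (limma adjusted p = 0.0132). Of all genes tested, 6.03% were called higher and 8.37% lower in this comparison. In MRL/lpr against Fn14ko these shares were 2.58% and 1.99%, and in Fn14ko against MRL/+ 0.237% and 0.717%. The values in parentheses that follow are log2 fold changes too. Of the other lists, in the same comparison, 2 of 8 interneuron markers were higher (Vip by 1.26) and 2 of 8 myelin markers lower (Mbp at -1.63). The choroid plexus list had 1 of 6 lower (Clic6 at -2.51), the endothelial list 3 of 6 higher (Ly6c1 by 1.47), the microglial list 1 of 6 higher (Aif1 by 1.17) and the blood list 1 of 4 higher (Hba-a1 by 2.37). No astrocyte marker of 6, striatal marker of 7 or lymphocyte marker of 3 tested was called. The summed blood level was 91.5 to 230.3 in MRL/lpr, 33.0 to 95.4 in Fn14ko and 24.8 to 46.9 in MRL/+. Against Fn14ko, MRL/lpr had 2 of 8 cortical markers higher and 1 lower (Neurod6 at -2.11), 1 interneuron marker higher (Vip), 2 myelin markers lower (Mobp at -1.18) and 1 choroid plexus marker lower (Clic6 at -2.96). In Fn14ko against MRL/+, 2 endothelial markers were higher (Ly6c1 by 1.49) and none of the others was called. The part of these markers in the members' differences was not tested.

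Several of these marker calls rested on few mice. Without both MRL/+ Cy5 mice, none of the choroid plexus, microglial or blood markers was called in MRL/lpr against MRL/+: Clic6 was at -2.01 (limma adjusted p = 0.341), Aif1 at 0.61 (limma adjusted p = 0.163) and Hba-a1 at 2.21 (limma adjusted p = 0.0742). The cortical counts then fell to 1 higher and 1 lower (Neurod6 at -2.46) and the interneuron count to 1 (Vip), while the 3 endothelial and 2 myelin calls were again made. No endothelial marker was then called in Fn14ko against MRL/+ (Ly6c1 at 1.03, limma adjusted p = 0.206), and against Fn14ko the calls of Mobp and Clic6 were lost (limma adjusted p = 0.120 and 0.144). Leaving out MRL/+ replicate 4 alone also ended the calls of Clic6 (0.250), Aif1 (0.141) and Hba-a1 (0.0571) in MRL/lpr against MRL/+, with adjusted p in parentheses. Aif1 was lost as well without Fn14ko replicate 2 (0.0540), and Clic6 without MRL/lpr replicate 1, 2 or 4, Fn14ko replicate 2, or MRL/+ replicate 2 or 3 (0.0518 to 0.0974). Ly6c1 in Fn14ko against MRL/+ was lost without MRL/lpr replicate 3, Fn14ko replicate 2, 3 or 4, or MRL/+ replicate 4 (0.0530 to 0.183). In MRL/lpr against Fn14ko, leaving out any of MRL/lpr replicates 1 and 4, Fn14ko replicates 1 and 2, and MRL/+ replicates 3 and 4 ended the calls of both Mobp and Clic6. That of Mobp was also lost without replicate 3 of MRL/lpr or Fn14ko (0.0555 to 0.152 over all 8 mice), and that of Clic6 without MRL/lpr replicate 2 or Fn14ko replicate 4 (0.0769 to 0.178). The calls of Neurod6, Vip and Mbp, and of Ly6c1 in MRL/lpr against MRL/+, held when any single mouse was left out. The less detected of the 2 Mbp probes was well above background in 2 of 4 mice in both Fn14ko and MRL/+. For Aif1 this was 2 of 4 in MRL/+, and for the least detected of 3 Mobp probes 1 of 4 in MRL/lpr and 2 of 4 in MRL/+.

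The genes whose signals ran most like that of Klk8 over the 12 mice, by Pearson's r of log2 signals, were Icosl (0.985), Rasd1 (0.984), Galnt17 (0.980), Lefty1 (0.979), Sh3bp5 (0.978), Iqgap2 (0.977), Thsd4 (0.977), Pcdh20 (0.976), C1ql2 (0.972) and Nrp1 (0.971). With group means removed, these r values fell to between 0.17 (C1ql2) and 0.85 (Lefty1), as most of the variation of Klk8 lies between MRL/lpr and the other 2 groups. Rasd1, a small GTPase gene induced by glucocorticoid, went from a mean of 0.660 in MRL/lpr to 2.34 in Fn14ko and 2.93 in MRL/+. Lefty1, a secreted antagonist of Nodal signalling, went from 0.231 to 1.24 and 1.43. Among the genes that ran most opposite were Fam149a (-0.981), Lypd6b (-0.971), Gucy1a1 (-0.970) and Myl4 (-0.969). Of 17294 genes other than the members, 168 had an r over 0.9, and the median r was 0.14. These are descriptions over 12 points that share arrays, dyes and groups. Between 3 and 5 of the 10 most similar genes were also among the 10 under Agilent's processed signal, loess scaling, no filter on faint spots and the strict detection filter.

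The other 7 members were left out of this ranking of genes by likeness to Klk8. Their r with Klk8 over the 12 mice was 0.56 for Ephb2, 0.43 for Klk6, 0.40 for L1cam, 0.19 for Plat, -0.26 for Erbb4, -0.60 for Serpini1 and -0.71 for Nrg1. Within groups, all lay between -0.34 (Klk6) and 0.33 (Serpini1).

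None of the 7 passed the test in any comparison. In MRL/lpr against MRL/+, limma called 0 of 7, while 14.4% of all genes tested were called, 6.03% higher and 8.37% lower. At an unadjusted p under 0.05 there were 4 (Nrg1, Ephb2, L1cam and Serpini1), beside 34.7% of all genes, and the groups did not overlap for 3 of 7 (Ephb2, L1cam and Serpini1), beside 23.9% of all genes. In Fn14ko against MRL/+, 0 of 7 were called, beside 0.954% of all genes (0.237% higher and 0.717% lower). L1cam alone had an unadjusted p under 0.05, beside 21.9% of all genes, and groups did not overlap for 0 of 7, beside 13.5%. Between MRL/lpr and Fn14ko, 0 of 7 were called, beside 4.57% of all genes (2.58% higher and 1.99% lower). Nrg1 was the only one of the 7 with an unadjusted p under 0.05, beside 18.6% of all genes, and with groups that did not overlap, beside 20.3%. The median log2 fold change of the 7 was -0.01, 0.01 and 0.05 in the 3 comparisons, and -0.10, -0.10 and -0.07 over all genes. Without both MRL/+ Cy5 mice, the log2 fold change in MRL/lpr against MRL/+ was -0.83 for L1cam, -0.32 for Ephb2, 0.53 for Nrg1, 0.14 for Erbb4, -0.68 for Klk6, -0.35 for Plat and 0.34 for Serpini1. L1cam and Nrg1 thus stayed close to their values with all mice, while Ephb2 and Serpini1 came down by more, and none was called (lowest limma adjusted p = 0.232, for L1cam). Those of Fn14ko against MRL/+ then lay between -0.88 (L1cam, limma adjusted p = 0.583) and 0.25 (Plat), and again none was called. Under loess scaling, the median over all genes moved to -0.19 in MRL/lpr against Fn14ko and to 0.04 in Fn14ko against MRL/+.

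**Figure D3:**
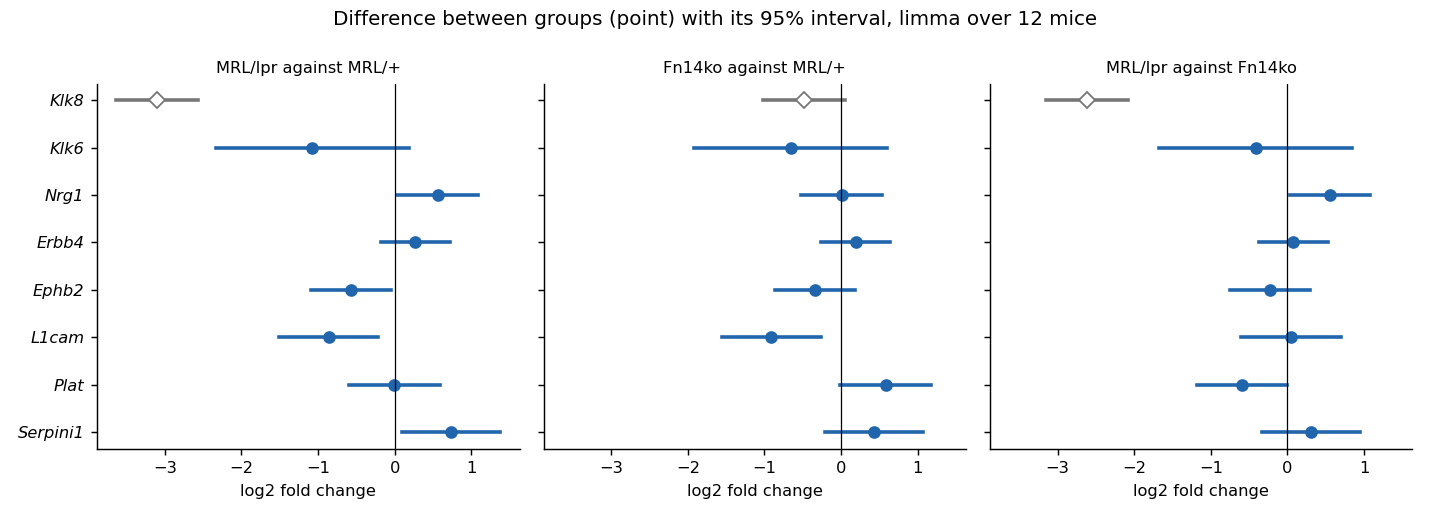
Log2 fold change of each gene in the 3 comparisons with its 95% interval from the limma fit over 12 mice, as a blue circle for the 7 genes tested and an open diamond for Klk8, which is a description. Klk8 stands at -3.10 and -2.62 where MRL/lpr is compared and at -0.48 between Fn14ko and MRL/+, while the 7 others lie between -1.08 and 0.74.

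Among the substrates, L1cam, a neuronal adhesion molecule that guides axons, came closest to the threshold. Its signals were 0.406, 0.384, 0.387 and 0.418 in MRL/lpr, then 0.533, 0.495, 0.372 and 0.225 for Fn14ko, against 0.918, 0.963, 0.627 and 0.497 in MRL/+. The 4 MRL/lpr mice were close together and below all MRL/+ mice, and Fn14ko spread more widely and overlapped both. L1cam had a log2 fold change of -0.86 (SE 0.30, limma adjusted p = 0.0704) in MRL/lpr against MRL/+ and -0.91 (SE 0.30, limma adjusted p = 0.135) in Fn14ko against MRL/+. Between MRL/lpr and Fn14ko it was 0.05 (95% interval -0.60 to 0.70). The exact permutation test of 4 mice against 4 gave p = 0.0286 for MRL/lpr against MRL/+, 2-sided, the smallest that the 70 divisions allow. That test took no account of array or dye, and here and below this value only restates that the 2 groups did not overlap. Mean signals were 0.399 and 0.406 in the groups that carry lpr, against 0.751 in MRL/+, and the Cy3 mice gave 0.397, 0.453 and 0.772. The probe was not well above background in MRL/+ replicate 4. L1cam was called in 7 of 25 other settings for MRL/lpr and in 5 of 25 for Fn14ko, with a lower level than in MRL/+ in all of them. The 5 for Fn14ko include the methods' t-test without adjustment.

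Ephb2, a receptor tyrosine kinase of dendritic spines that neuropsin cuts in the amygdala under stress, had signals of 0.419, 0.415, 0.377 and 0.359 in MRL/lpr. They were 0.555, 0.587, 0.383 and 0.352 in Fn14ko and 0.563, 0.702, 0.431 and 0.664 in MRL/+. MRL/lpr lay below MRL/+ in all 4 mice, and Fn14ko overlapped both. MRL/lpr differed from MRL/+ by -0.57 on the log2 scale (SE 0.24, limma adjusted p = 0.120, exact permutation p = 0.0286). The log2 fold change was -0.34 (limma adjusted p = 0.370) in Fn14ko against MRL/+ and -0.23 (limma adjusted p = 0.698) in MRL/lpr against Fn14ko. The 2 highest values were those of the MRL/+ Cy5 mice, in which the probe was not well above background. In the Cy3 mice the means were 0.398, 0.469 and 0.497.

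Nrg1, the ligand released by neuropsin, was the member whose level ran most opposite to Klk8. Its signals were 0.595, 0.625, 0.690 and 0.782 in MRL/lpr, 0.534, 0.510, 0.421 and 0.377 in Fn14ko, and 0.567, 0.618, 0.379 and 0.321 in MRL/+. All 4 MRL/lpr mice lay above all Fn14ko mice, and MRL/+ overlapped both. Nrg1 in MRL/lpr had a log2 fold change of 0.55 (SE 0.24, limma adjusted p = 0.240, exact permutation p = 0.0286) against Fn14ko and 0.56 (SE 0.24, limma adjusted p = 0.123) against MRL/+. Between Fn14ko and MRL/+ it was 0.01 (95% interval -0.52 to 0.53). The higher level in MRL/lpr than in MRL/+ was past the threshold in 3 of 25 other settings. These were background subtraction and a cap on the local background, at 0.88 and 0.82 (limma adjusted p = 0.00224 and 0.00220), and loess scaling. In that order they called 5140, 4298 and 5668 of 17302 genes in this comparison, beside 2492 in the setting of the text. The probe was not well above background in the 2 MRL/+ Cy5 mice.

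Erbb4, the receptor through which neuregulin acts on interneurons, showed the smallest spread of group means. Its signals were 2.62, 2.07, 2.37 and 1.95 in MRL/lpr, 2.03, 1.88, 2.52 and 2.12 in Fn14ko, and 1.75, 1.21, 2.80 and 2.02 in MRL/+. All groups overlapped, and MRL/+ held both the highest and the lowest mouse. The log2 fold change in MRL/lpr against MRL/+ was 0.27 (95% interval -0.18 to 0.72, limma adjusted p = 0.359), and it was 0.19 and 0.08 in the other comparisons (limma adjusted p = 0.551 and 0.899).

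Klk6, the kallikrein of oligodendrocytes that is known for cutting myelin proteins, was the faintest member. Its signals were 0.112, 0.199, 0.179 and 0.227 in MRL/lpr, 0.600, 0.280, 0.169 and 0.102 in Fn14ko, and 0.415, 0.556, 0.208 and 0.373 in MRL/+. It was well above background in 3, 3 and 2 of 4 mice in that order of groups, and the groups overlapped, with a coefficient of variation of 76.7% in Fn14ko. Klk6 had a log2 fold change of -1.08 (SE 0.58, limma adjusted p = 0.199) in MRL/lpr against MRL/+, with a wide 95% interval of -2.34 to 0.19. In the other comparisons it was -0.66 and -0.42 (limma adjusted p = 0.462 and 0.781).

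Plat encodes tissue plasminogen activator, a further secreted serine protease of synapses. It had signals of 1.25, 0.552, 1.13 and 0.720 in MRL/lpr, 1.23, 1.28, 1.58 and 1.18 in Fn14ko, and 1.19, 0.622, 1.50 and 0.522 in MRL/+. In MRL/lpr and MRL/+ the Cy3 mice were higher than the Cy5 mice, and all groups overlapped. For Plat it came to a log2 fold change of -0.01 (95% interval -0.60 to 0.59) in MRL/lpr against MRL/+, 0.59 (limma adjusted p = 0.232) in Fn14ko against MRL/+ and -0.59 (limma adjusted p = 0.269) in MRL/lpr against Fn14ko.

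Serpini1, which encodes the plasminogen activator inhibitor neuroserpin, was the brightest member, although signals of different probes do not rank genes. Its signals were 10.4, 8.73, 8.67 and 10.4 in MRL/lpr, 5.50, 9.15, 9.07 and 7.60 in Fn14ko, and 6.46, 4.97, 8.08 and 4.06 in MRL/+. MRL/lpr lay above MRL/+ in all 4 mice, with a log2 fold change of 0.74 (SE 0.30, limma adjusted p = 0.102, exact permutation p = 0.0286). The 2 probes disagreed in direction: the bright one, which sets the mean, gave 0.80 (limma adjusted p = 0.0943 over all probes), and the other -0.37 (limma adjusted p = 0.270 over all probes). The fainter probe was not well above background in the MRL/+ Cy5 mice. In the Cy3 mice the gene means were 9.55, 7.28 and 7.27. Fn14ko lay between, at 0.43 against MRL/+ and with MRL/lpr at 0.31 against it, and neither passed the test (limma adjusted p = 0.359 and 0.653).

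**Figure D4:**
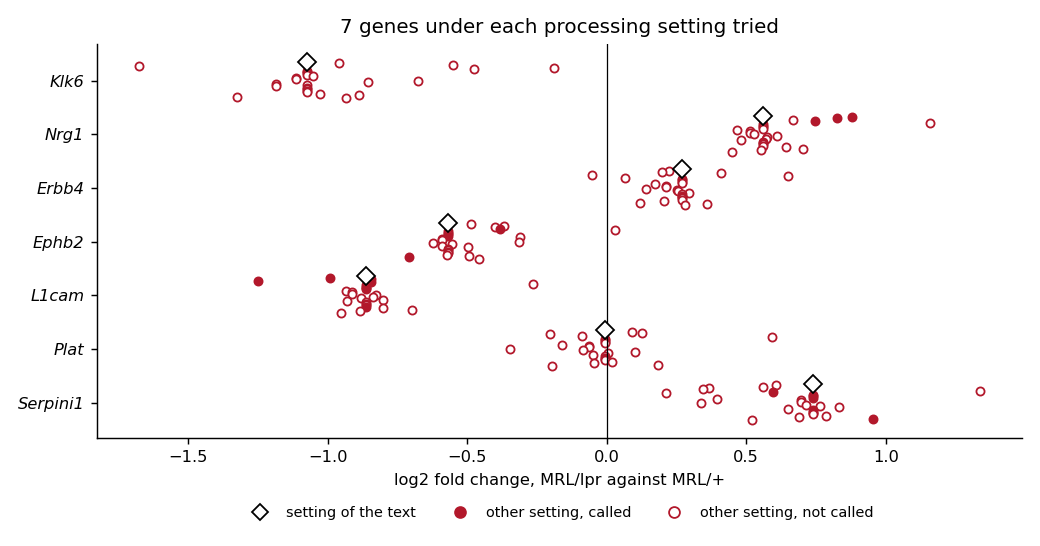
Log2 fold change of the 7 tested genes in MRL/lpr against MRL/+ under each processing setting, with an open diamond for the setting of the text. Filled circles mark differences past the threshold of 0.05 and open circles those not past it. L1cam, Klk6, Nrg1 and Serpini1 stay on the same side of 0 in all settings shown, while Plat, Erbb4 and Ephb2 cross it, the latter 2 in 1 setting each, which for Ephb2 is the one that keeps faint spots and moves most genes up together.

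Of 80 further genes of these pathways, 46 were measured. Among the other kallikreins, 5 of 23 passed the limit for faint spots (Klk1b8, Klk1b21, Klk4, Klk9 and Klk10), and 0 of 5 were called in any comparison. Without MRL/+ replicate 3, all 5 were called lower in MRL/lpr than in MRL/+, in a fit that called 5551 of 17302 genes. Without Fn14ko replicate 1, 2 of them were, beside 3491 of all genes. Without both MRL/+ Cy5 mice, none of the 5 was called, at -1.07 to -0.47 (limma adjusted p = 0.412 to 0.620). In MRL/+, just 2 of 4 mice had each of them well above background. With all mice, their log2 fold changes were -1.34 to -0.83 in MRL/lpr against MRL/+, -0.96 to -0.47 in Fn14ko against MRL/+ and -0.69 to 0.05 in MRL/lpr against Fn14ko. Within 250 kb of the Klk8 probe, a window chosen after values were seen, 10 of 25 other genes were measured. Of these 10, MRL/lpr against MRL/+ had 2 higher (2310002F09Rik and Zfp658) and 1 lower (Ctu1), beside 6.03% and 8.37% of all genes. Log2 fold changes of all 10 ran from -1.34 to 1.59. Klk8 was chosen as the lowest of all genes tested, so none of them could have reached its decrease.

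Of 10 measured genes of neuregulin and ErbB signalling, 1 was called, in MRL/lpr against MRL/+, beside 14.4% of all genes. This was Tgfa, a ligand of the EGF receptor, with means of 0.276 ± 0.0438, 0.567 ± 0.200 and 0.724 ± 0.273 (SD, n = 4) in MRL/lpr, Fn14ko and MRL/+ and a log2 fold change of -1.32 (SE 0.35, limma adjusted p = 0.0263). Only 2 of 4 MRL/+ mice had it well above background. The change was -0.87 without both MRL/+ Cy5 mice (limma adjusted p = 0.230), and the 1 gene of the list called then was Nrg2, another neuregulin, at 0.82 (limma adjusted p = 0.0455). Leaving out MRL/lpr replicate 1 gave -1.29 (adjusted p = 0.0542), and leaving out MRL/+ replicate 4 gave -1.06 (adjusted p = 0.145).

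Among 9 genes of class B Eph receptors and their partners, 1 rose and 1 fell in MRL/lpr against MRL/+, beside 6.03% and 8.37% of all genes. Ephb6, a receptor of this class without kinase activity, rose from 4.59 ± 0.513 in MRL/+ to 10.6 ± 1.68 in MRL/lpr (SD, n = 4), a log2 fold change of 1.20 (SE 0.21, limma adjusted p = 0.00397). It kept its call under 24 of 26 other settings. Fkbp5, a co-chaperone of the glucocorticoid receptor whose induction in the amygdala is linked to the cutting of Ephb2 by neuropsin, had signals of 2.36, 2.84, 2.49 and 2.08 in MRL/lpr. They were 5.77, 5.19, 3.36 and 7.30 in Fn14ko and 4.87, 6.02, 3.94 and 4.52 in MRL/+. As with Klk8, all MRL/lpr mice lay below the 8 others. The log2 fold change was -0.98 (SE 0.27, limma adjusted p = 0.0294) against MRL/+ and -1.10 (SE 0.27, limma adjusted p = 0.0330) against Fn14ko. Without both MRL/+ Cy5 mice it was -0.97 (adjusted p = 0.182) and -1.10 (adjusted p = 0.125). Against MRL/+, the adjusted p was between 0.0537 and 0.145 on leaving out MRL/lpr replicate 1 or 4, Fn14ko replicate 2 or MRL/+ replicate 4. Against Fn14ko it was between 0.0528 and 0.165 on leaving out any of these, Fn14ko replicate 1 or 4, or MRL/+ replicate 3.

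Of 10 measured genes of the L1 family and adhesion, 1 rose and 1 fell in MRL/lpr against MRL/+, beside 6.03% and 8.37% of all genes. Vtn, the matrix protein vitronectin, had means of 12.6, 14.4 and 5.71 in MRL/lpr, Fn14ko and MRL/+ (log2 fold change 1.16, SE 0.34, limma adjusted p = 0.0384). Itgb1, the beta subunit of fibronectin receptors, had means of 0.580, 0.798 and 1.01 (log2 fold change -0.78, SE 0.20, limma adjusted p = 0.0218). Without both MRL/+ Cy5 mice, the changes were 0.65 for Vtn (adjusted p = 0.340) and -0.69 for Itgb1 (adjusted p = 0.181). The call of Itgb1 was also lost without MRL/+ replicate 4 (adjusted p = 0.152). That of Vtn was lost without any 1 of the 4 MRL/lpr mice, Fn14ko replicate 2, or MRL/+ replicate 2 or 4, with adjusted p between 0.0504 and 0.227.

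Of 11 measured genes of the plasminogen activator system and of protease inhibitors, 2 fell in MRL/lpr against MRL/+ and 1 of them, Serpina3n, also against Fn14ko. The shares of all genes called lower were 8.37% and 1.99%. Serpina3n encodes a secreted serine protease inhibitor best known from reactive astrocytes. Its signals were 1.12, 1.34, 1.22 and 1.11 in MRL/lpr, 7.17, 11.1, 5.12 and 6.10 in Fn14ko, and 9.04, 7.50, 8.41 and 4.67 in MRL/+. The MRL/lpr mice were again all below the others, at close to a common level. The log2 fold change was -2.59 (SE 0.31, limma adjusted p = 0.000517) against MRL/+ and -2.56 (SE 0.31, limma adjusted p = 0.000759) against Fn14ko, and 24 of 26 other settings kept each call. Mmp2, a matrix metalloproteinase, had means of 0.166, 0.347 and 0.448 (log2 fold change -1.32, SE 0.40, limma adjusted p = 0.0438). It was well above background in 2, 4 and 2 of 4 mice, and only 9 of 25 other settings kept its call. It was -1.04 (adjusted p = 0.291) without both MRL/+ Cy5 mice, and leaving out 1 mouse gave adjusted p between 0.0508 and 0.207 for MRL/lpr replicates 1, 2 and 4, Fn14ko replicates 2 and 3, and MRL/+ replicates 1, 2 and 4. Of the thrombin and protease-activated receptor genes, 1 of 5 was measured and was not called. No gene of these 6 lists was called between Fn14ko and MRL/+ with all mice, beside 0.954% of all genes.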

How the data were processed

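Cortex RNA of 12 mice was measured on 6 Agilent 2-colour arrays. The deposited scanner output, made by Feature Extraction 12.1.0.3 on an mm9 design per the file headers, gives foreground and local background intensity of 44397 spots before normalization, together with a processed signal, background-subtracted and dye-normalized by the authors' software. Groups came from the labels. Control spots, spots marked uneven or outlying, and spots under 2 times background in any mouse (17781) were left out, which kept 24255 spots. Background was corrected with normexp (limma 3.58.1, R 4.3.3, offset 50). Channels were divided by their median, and spots of a gene were averaged on the linear scale. Log2 signals of 17302 genes were fitted by limma over all 12 mice with a dye term and a random block for the array (correlation 0.32), 2-sided, with Benjamini-Hochberg adjustment and a threshold of 0.05. Exact permutation tests took the 70 divisions of 8 mice and took no account of the shared arrays or the dyes. A gene's mean is set mostly by its brightest spot. Nothing in the labels gives separate litters or cages, so p-values measure the spread between these mice.

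The members, lists and tests were chosen with earlier results of these data known. The genes named were the members, the 3 largest called changes of each pathway list and comparison, the largest called marker of each marker list, and the 10 genes most like Klk8 and 5 least like it; other names were added after values were seen. Some genes that this rule and the lists cover are not reported here and are left out of the marker counts. Alternatives were background subtraction, a cap on local background at 5 times the channel median, processed signal, loess with quantile scaling, no faint-spot filter, a strict detection filter, averaging of log2 values, no dye term, no array block, a replicate block, the Cy3 mice alone, the methods' t-test and each mouse left out. Leaving out both MRL/+ Cy5 mice was added after the data were seen. The model was tested on simulated data. Figures were drawn with matplotlib 3.10.9.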

Additional observations from a re-analysis of the deposited data

How the results depend on the processing

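The 6 arrays, the slide shared by each group and the faint MRL/+ Cy5 channels limit what can be seen of the less bright members. Klk8 stayed lower in MRL/lpr under all alternatives, at -3.49 to -2.50 against MRL/+ and -2.92 to -2.49 against Fn14ko. Keeping faint spots rescaled the channels and moved the genes of both fits by a median of 0.60, 0.73 and -0.13 in the order of comparisons below (within 0.01 for 86.3% to 88.2% of them), so a turned sign under that setting is a shift shared with most genes, also for Klk8 between Fn14ko and MRL/+ (0.25). Where a count moved, the cause was not tested unless fewer genes or mice entered the fit.

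In the order MRL/lpr against MRL/+, Fn14ko against MRL/+ and MRL/lpr against Fn14ko, the setting of the text called 2492, 165 and 790 genes. Background subtraction called 5140, 2837 and 2849, the capped background 4298, 2279 and 2474, loess scaling 5668, 1531 and 3482, no array block 5189, 1881 and 1782, and no faint-spot filter 22, 0 and 32 of 29149. The fit without that filter both adjusted over more genes and rescaled the channels, and the cause of its low counts was not tested. In Fn14ko against MRL/+, the methods' t-test called 2 after Benjamini-Hochberg adjustment and 2622 without it. The processed signal called 1012 and 1889 in the latter comparisons. In Fn14ko against MRL/+, the strict detection filter called 805 and the fit without a dye term 294. The Cy3 mice gave 1356 and 469 in the first and last, the methods' t-test 721 and 181 after adjustment and 4218 and 3818 without it, and the fit without both MRL/+ Cy5 mice 871 and 6 in the comparisons with MRL/+. Leaving out 1 mouse gave 781 (without MRL/+ replicate 4) to 5551 (without MRL/+ replicate 3), 8 to 2164 (the same mice) and 357 (without MRL/+ replicate 4) to 1002 (without MRL/+ replicate 1).

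Of the 7 members, 0 were called in the setting of the text. In MRL/lpr against MRL/+ there were 2 under background subtraction, the capped background, no array block and the unadjusted t-test, 1 under the processed signal, 3 under loess, and 1 of 2 tested under the strict filter. Leaving out 1 mouse gave 0 to 2, with 2 (Ephb2 and Serpini1) without MRL/+ replicate 3, and 1 without Fn14ko replicate 1 (Serpini1) or 4 (L1cam). In Fn14ko against MRL/+ there was 1 (L1cam) under subtraction, the cap, the processed signal and the unadjusted t-test. In MRL/lpr against Fn14ko there was 1 under subtraction, the cap and the unadjusted t-test (Nrg1) and 1 under loess (Ephb2).

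The labels do not say that the replicate numbers pair the mice. Same-numbered mice, which also share a dye, had correlations of their deviations from -0.13 to 0.72, or -0.28 to 0.48 with the dye removed, so not every pair correlated. Of 12 mice, 7 matched their own number best with the dye left in. Since mice of the same number share a dye, this count cannot tell pairing from dye. A replicate block gave 5597, 1209 and 1624 genes, 3 members against MRL/+ in MRL/lpr (Ephb2, L1cam and Serpini1) and 1 in Fn14ko (L1cam).

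Of the 10 genes most like Klk8, 3 were also among the 10 under the processed signal, 5 under loess and without the faint-spot filter, and 4 under the strict filter.

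Directions turned only for differences that had not passed the test. In MRL/lpr against MRL/+, these were Erbb4 under loess (-0.055) and Plat under subtraction (0.090), the cap (0.13) and leaving out 1 mouse (-0.20 to 0.18). In Fn14ko against MRL/+, Klk6 turned under loess (0.35) and in the Cy3 mice (0.11). Nrg1 turned under the processed signal (-0.088), both forms of the t-test (-0.033), without both MRL/+ Cy5 mice (-0.027) and on leaving out 1 mouse (-0.10 to 0.15). Erbb4 turned under the strict filter (-0.034), Ephb2 under loess (0.026), and Serpini1 in the Cy3 mice (-0.034). In MRL/lpr against Fn14ko, Klk6 turned under the processed signal (0.11) and without Fn14ko replicate 1 (-0.82 to 0.060 over single mice left out). Erbb4 turned under loess (-0.059) and without Fn14ko replicate 1 (-0.0031 to 0.13 over single mice left out). L1cam turned under loess (-0.20), the Cy3 mice (-0.17), both forms of the t-test (-0.028) and on leaving out 1 mouse (-0.18 to 0.15). By the shift of the fit with faint spots kept, Ephb2 (0.031) and Plat (0.59) were above 0 in MRL/lpr against MRL/+, Klk6 (0.066) and Ephb2 (0.38) in Fn14ko against MRL/+, and Erbb4 (-0.093) and L1cam (-0.079) were below 0 in MRL/lpr against Fn14ko.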
